A study of Rattus norvegicus with 100 samples.

Results

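The earliest and strongest exposure in this data set was examined: primary rat hepatocytes kept for 2 h with 10 µM GW7647, a synthetic agonist of the nuclear receptor PPARα. The members were the 7 arrays, of 100 in all, whose titles name 2 h with 10 µM or 0 µM. They were 4 arrays at 10 µM, from the rats Rs627, Rs628, Rs631 and Rs632, and 3 at 0 µM, from Rs627, Rs631 and Rs632. These sizes hold for every value below. Each array measured a separate culture, so rats Rs627, Rs631 and Rs632 gave a treated and an untreated culture each, and Rs628 gave a treated one only. All cultures were grown on rat collagen IV under Geltrex in William E medium with a maintenance supplement. The labels name no genotype, strain, age or sex, and whether solvent was added at 0 µM is not stated in them. Primary hepatocytes lose liver functions with time in culture, which limits them as a model of the liver. The study followed exposures of up to 72 h, so 2 h is an early point.

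PPARα is a fatty acid sensor of the liver. When a ligand binds, it acts with a retinoid X receptor at DNA elements made of a pair of like half-sites, and raises genes that import fatty acids into mitochondria and peroxisomes, oxidise them, store or release them, and spare glucose. It is best known in the fasting liver. An exposure as short as this one leaves little time for changes that need new protein first.

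The 0 µM arrays had 75th percentiles of log2 intensity of 7.12, 7.13 and 7.19. At 10 µM these were 7.10 for Rs627, 6.90 for Rs628, 7.14 for Rs631 and 6.83 for Rs632, so the treated arrays of Rs628 and Rs632 were dimmer than the rest. The 3′ to 5′ difference of the β-actin control probes, a sign of RNA quality, lay between 1.46 and 1.92 at 10 µM and between 1.61 and 1.79 at 0 µM. Of 21 measured hepatocyte markers, 19 exceeded a log2 value of 5 in all 7 arrays, with albumin (Alb) between 13.66 and 13.78. Values at or under 5 are treated here as too dim to measure. None of 8 endothelial or 8 lymphocyte markers exceeded 5 in all 7 arrays, and Pecam1, Kdr, Cd3e and Ptprc stayed under it in each. Of 12 macrophage markers only Cd14 and Lyz2 exceeded 5 in all 7, of 12 stellate cell or fibroblast markers 3 did, and of 6 bile duct markers only Epcam. Krt7 and Krt19, keratins of bile duct cells, read 7.65 and 7.68 in the 10 µM array of Rs628. In the 3 arrays that Rs628 gave at 2 h they lay between 6.10 and 7.68, and in the 17 arrays of the other rats at 2 h between 3.61 and 5.35. Summed over each list, log2 values ran from 30.7 to 33.6 at 0 µM and from 30.5 to 39.3 at 10 µM for the bile duct markers, from 52.7 to 56.7 and from 52.9 to 55.1 for the macrophage markers, and from 53.2 to 55.7 and from 54.7 to 57.1 for the stellate cell markers. For the endothelial markers they ran from 27.8 to 28.8 and from 28.3 to 28.7, and for the lymphocyte markers from 26.8 to 28.7 and from 28.7 to 29.7. Only 3 macrophage, 7 stellate cell, 1 endothelial, 4 bile duct and 2 lymphocyte markers were bright enough for the test used below. None of them passed, and the part of these cell types in the results was not tested. Without Rs628 the count of changed genes given next was 82 (48 higher and 34 lower), and 32 of the 90 genes called with it were lost.

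After 2 h at 10 µM, genes of fuel choice, fatty acid handling and other functions had changed. Pdk4, a kinase that switches off pyruvate dehydrogenase, rose 14-fold. Txnip, a thioredoxin-binding protein that also limits glucose uptake, rose 3.74-fold, Ehhadh of peroxisomal β-oxidation 3.58-fold and the secreted lipase inhibitor Angptl4 3.03-fold. Among the falls the smallest adjusted p was that of Znf750, a zinc-finger transcription factor, which was at least 3.12-fold lower. In all, 90 of 8843 genes tested (1.02%) differed between 10 and 0 µM at an adjusted p under 0.05, 44 of them higher (0.498%) and 46 lower (0.52%). Because this is bulk RNA, fewer cells of a type and less RNA per cell cannot be told apart.

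The median log2 change was 0.91 among the rises and -0.93 among the falls, against -0.09 over all genes tested. Of the rises 18 were at least 2-fold, and of the falls 21. All 90 genes had the same sign in each of the 3 rats with both cultures. Apart from Dennd2c this follows from the lack of overlap given next, and the share among all genes tested was not counted. In 44 of 44 rises all treated arrays lay above all untreated ones, and in 45 of 46 falls all lay below. Over all genes tested, 1.91% had such non-overlapping higher values and 5.28% lower ones. The exception among the falls was Dennd2c.

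The main model had no term for the rat and treated all arrays as independent. When the model held the rat as a block, the count was 229 (96 higher and 133 lower), and the 90 genes were all among them. Fitted on the 7 arrays alone, no gene passed the adjusted threshold of limma, while 489 had an unadjusted p under 0.05 (149 higher and 340 lower), so the calls rest on a spread estimated from all 100 arrays. Leaving out all arrays of Rs632 left 23 genes (19 higher and 4 lower), Rs627 49 and Rs631 54. Of the rises, 16 passed without each rat in turn, and of the falls 4, namely Znf750, Hhex, Kcnk5 and Cfap20. Each of the other 70 calls was lost without at least 1 rat: 68 of the 90 were lost without Rs632, 41 without Rs627, 40 without Rs631 and 32 without Rs628.

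**Figure D1:**
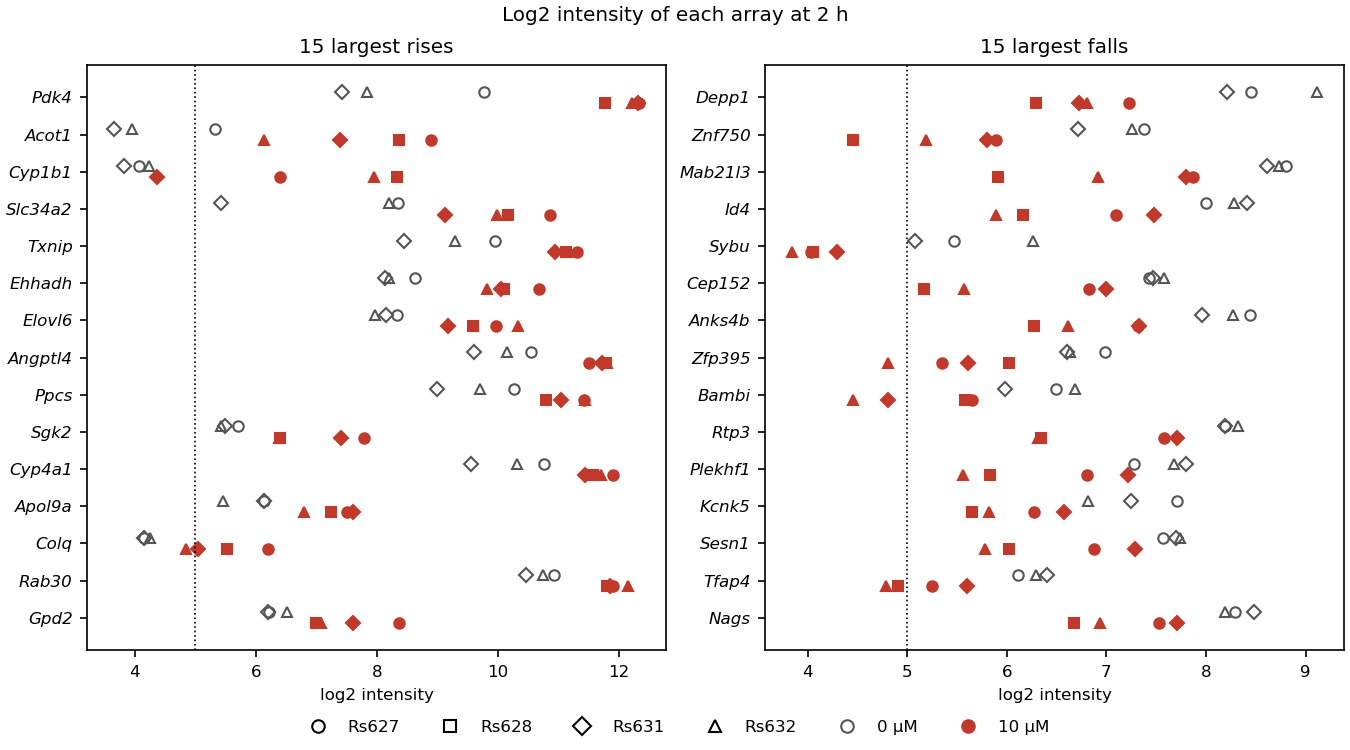
Deposited log2 intensity of each array for the 15 largest rises and the 15 largest falls, with open symbols for 0 µM, filled symbols for 10 µM, a symbol shape per rat and a dotted line at a log2 value of 5. The filled symbols lie above the open ones for each rise and below them for each fall shown. For Cyp1b1 the 10 µM array of Rs631, at 4.37, lies close to the untreated arrays.

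Because PPARα acts through paired half-sites, promoter sequences of the changed genes were read from RefSeq (rat build GRCr8), from 250 bases before to 50 bases after the start. Of the rises 35 had such a sequence, and of the falls 36. The motif searched on both strands was AGGTCANAGGTCA with up to 2 mismatches in the 12 half-site bases. It occurred in 3.71% of all 27457 promoters, in 2.87% of those of tested genes, in 1 of 35 rises (2.86%) and in 1 of 36 falls (2.78%). The single half-site AGGTCA, which is part of that motif, was in 15.7% of all promoters, 12.0% of those of tested genes, 5.71% of the rises and 11.1% of the falls. Both shares among the changed genes were thus no higher than among the tested genes. The promoters below are printed in the gene's own direction because they belong to the largest rise and to the single matches in each direction. Capitals mark the match, which begins 223 bases before the start in Crat and 95 bases before it in Anks4b. The stretch of Pdk4 has no match and no half-site.
Pdk4, chr4:34568280-34568579, minus strand: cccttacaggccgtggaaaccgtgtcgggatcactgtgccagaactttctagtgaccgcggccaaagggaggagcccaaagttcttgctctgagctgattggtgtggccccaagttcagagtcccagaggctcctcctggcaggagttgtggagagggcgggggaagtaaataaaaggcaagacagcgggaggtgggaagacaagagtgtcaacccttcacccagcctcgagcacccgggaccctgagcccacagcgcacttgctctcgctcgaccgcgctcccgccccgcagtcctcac
Crat, chr3:34087050-34087349, minus strand: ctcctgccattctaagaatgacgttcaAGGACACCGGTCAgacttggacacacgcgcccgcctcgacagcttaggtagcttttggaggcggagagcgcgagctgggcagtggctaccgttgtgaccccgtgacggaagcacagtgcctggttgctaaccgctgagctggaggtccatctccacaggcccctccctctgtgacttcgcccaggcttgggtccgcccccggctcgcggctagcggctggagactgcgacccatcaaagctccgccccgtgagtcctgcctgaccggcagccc
Anks4b, chr1:183978552-183978851, plus strand: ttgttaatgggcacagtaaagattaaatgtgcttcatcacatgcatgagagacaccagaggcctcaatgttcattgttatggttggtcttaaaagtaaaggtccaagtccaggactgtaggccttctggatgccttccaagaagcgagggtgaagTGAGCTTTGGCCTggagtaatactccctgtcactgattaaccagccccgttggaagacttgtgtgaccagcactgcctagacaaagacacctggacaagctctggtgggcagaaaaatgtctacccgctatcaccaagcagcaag
A match is a description of the letters in this window, and a window of 300 bases leaves out introns and distant elements.

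The control of pyruvate dehydrogenase was the group with the largest single change. Pdk4 read 9.78, 7.43 and 7.84 at 0 µM in Rs627, Rs631 and Rs632, and 12.34, 11.78, 12.31 and 12.22 at 10 µM in Rs627, Rs628, Rs631 and Rs632, the order used for all values below. The untreated cultures spread widely, with Rs627 highest, while the treated ones were alike, so the groups were far apart. The log2 change was 3.81 ± 0.46 (SE of the fit, as for all changes below; adjusted p = 1.43e-08), and it ranged from 3.30 to 4.47 with a rat left out. Pdp2, a phosphatase that switches the enzyme complex on again, rose 1.84-fold (0.88 ± 0.17, adjusted p = 0.00082), from 6.43, 6.89 and 6.49 to 7.62, 7.13, 7.68 and 7.49. Its call was lost without Rs627 and without Rs632. Pdp1, the other such phosphatase, did not pass, with means of 6.85 at 0 µM and 5.96 at 10 µM (log2 change -0.88 ± 0.36, adjusted p = 0.436). Of 9 tested genes of this group 2 rose and none fell, and the median of the group was -0.16.

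Of 19 tested genes of mitochondrial fatty acid oxidation and the carnitine shuttle, 1 rose at 2 h and 18 did not pass, with a median log2 change of 0.20 and 17 positive values. The riser was Slc22a5, the plasma membrane carnitine carrier. It read 7.36, 7.36 and 7.42 without the agent and 8.77, 8.05, 8.15 and 8.24 with it, a rise of 1.89-fold (0.92 ± 0.21, adjusted p = 0.00795), with the call lost without Rs627 and without Rs632. Every treated culture exceeded every untreated one, and Rs627 was highest. Cpt1a, the entry step of long-chain fatty acids into mitochondria, read 9.02, 8.18 and 8.51 and then 9.77, 9.69, 9.23 and 9.11. Its groups did not overlap, and it passed with the rat as a block but not without it (log2 change 0.88 ± 0.26, adjusted p = 0.0964, and 0.00151 with the block). Its partner Cpt2 and the carrier Slc25a20 likewise passed with the block and not without it, at 1.40-fold (adjusted p = 0.193, with the block 0.00692) and 1.28-fold (0.325 and 0.009). With the block 5 of the 19 genes passed.

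Peroxisomal genes gave 2 rises among 21 tested, with a median of 0.06. Ehhadh, the bifunctional hydratase and dehydrogenase, read 8.63, 8.13 and 8.21 at 0 µM and 10.68, 10.10, 10.06 and 9.83 at 10 µM (log2 change 1.84 ± 0.26, adjusted p = 2.19e-06). Crat, which moves acetyl groups between CoA and carnitine, rose 2.17-fold (1.12 ± 0.21, adjusted p = 0.000335), from 7.37, 6.77 and 6.97 to 8.57, 8.02, 8.0 and 8.03. Both genes were higher in each treated culture than in any untreated one, with Rs627 highest in both groups, and both passed without each rat in turn. Pex11a, a peroxisome division protein, was 2.04-fold higher without passing (adjusted p = 0.162, with the block 0.001), as was the enoyl-CoA isomerase Eci2 (1.5-fold, 0.193 and 0.000272). Blocking by rat brought the group to 6 rises.

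Acyl-CoA thioesterases, which release free fatty acids from CoA, had 3 rises among 7 tested genes and no fall, with a median of 0.21. Acot1, the cytosolic member, read 5.33, 3.65 and 3.95 and then 8.89, 8.37, 7.40 and 6.13. Only Rs627 was above 5 without the agent, and all 4 treated cultures were. Taking 5 for the values below it, the rise was at least 6.01-fold (3.39 ± 0.70 from the values as they stand, adjusted p = 0.00197), and the call was lost without Rs631. Acot2, the mitochondrial member, rose 1.67-fold (0.74 ± 0.18, adjusted p = 0.0146) and Acot7 1.58-fold (0.66 ± 0.18, adjusted p = 0.0477). The call of Acot7 was lost whichever rat was left out, and that of Acot2 without Rs627 and without Rs632.

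Lipid droplet genes gave 1 rise among 12. Plin2, the main droplet coat of hepatocytes, rose by a small step over a bright and steady level, from 12.60, 12.51 and 12.50 to 13.00, 12.93, 12.99 and 12.95 (1.35-fold, 0.43 ± 0.08, adjusted p = 0.000294). The call was lost without Rs632. Its other 2 probe sets gave log2 changes of -0.32 and -0.05 with unadjusted p of 0.553 and 0.788. G0s2, an inhibitor of triglyceride lipase, was 2.42-fold higher without passing (adjusted p = 0.114, with the block 0.00795), and its treated values, between 8.12 and 10.60, overlapped the untreated ones, between 7.45 and 9.12.

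Fatty acid ω-hydroxylation had 1 rise among 6. Cyp4a1, a classical target of peroxisome proliferators in rat liver, read 10.77, 9.55 and 10.32 and then 11.90, 11.58, 11.44 and 11.71 (2.71-fold, 1.44 ± 0.29, adjusted p = 0.00109). It did not pass without Rs631 or without Rs632. Cyp4a3 was 1.56-fold higher (adjusted p = 0.19, with the block 0.00219). These P450 genes have close sequence relatives, and cross-hybridisation between them was not tested.

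None of 19 genes of fatty acid uptake and activation passed, and none of 6 ketone body genes. With the rat as a block, the acyl-CoA synthetases Acsl1 (1.48-fold, adjusted p = 0.0121) and Acsl3 (1.90-fold, 0.00491) and the thiolase Acat1 (1.27-fold, 0.013) passed. Without the block their adjusted p were 0.144, 0.233 and 0.203. Fabp1, which binds fatty acids in hepatocyte cytosol, was 1.84-fold higher and passed in neither fit (adjusted p = 0.635 and 0.0677).

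Among 26 tested genes of other PPARα-linked functions, 5 rose and none fell, and 20 values were positive, with a median of 0.36. Angptl4, which restrains lipoprotein lipase, read 10.55, 9.61 and 10.16 without the agent and 11.51, 11.79, 11.72 and 11.81 with it (1.60 ± 0.16, adjusted p = 3.95e-11). Here Rs627 was the highest untreated and the lowest treated culture, and the groups stayed apart. Txnip read 9.95, 8.45 and 9.29 and then 11.31, 11.12, 10.94 and 11.16 (1.90 ± 0.29, adjusted p = 6.76e-06). Mlycd, which removes malonyl-CoA, the brake on fatty acid import into mitochondria, rose 2.00-fold (1.00 ± 0.15, adjusted p = 6.26e-06), from 8.93, 8.46 and 8.71 to 9.94, 9.57, 9.49 and 9.80. Like Angptl4 and Txnip, it passed without each rat in turn.

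The remaining rises of that group were smaller. Hsdl2, a peroxisomal protein of the dehydrogenase family, rose 1.44-fold (adjusted p = 0.00675) and Nudt7, which cleaves CoA in peroxisomes, 1.57-fold (adjusted p = 0.0327). Both lost the call without Rs627 and without Rs632, and Nudt7 also without Rs631. The fasting hormone gene Fgf21 read 9.14, 7.44 and 8.09 and then 9.58, 10.02, 8.83 and 9.11, with overlap and no pass (2.24-fold, adjusted p = 0.193, with the block 0.0429). The glycerol kinase gene Gk was 1.72-fold higher (adjusted p = 0.217, with the block 0.00446). Gdf15, a stress hormone, was at least 2.69-fold higher and passed with the block but not without it (adjusted p = 0.239, with the block 0.0176). Creb3l3, a liver factor of lipid genes, was 1.35-fold higher and passed in neither fit (adjusted p = 0.316 and 0.057). Ppara itself did not exceed 4.82 in any array at 2 h, under the floor, so its change could not be measured. None of 15 tested genes of PPARs, partner receptors and coregulators passed, and with the block 1 did, the retinoid X receptor gene Rxrg (log2 change 0.90, adjusted p = 0.341 without and 0.00474 with it).

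Other large rises lay in lipid and CoA synthesis and outside metabolism. Ppcs, an enzyme of CoA synthesis, read 10.26, 8.99 and 9.70 and then 11.43, 10.79, 11.05 and 11.44 (2.88-fold, 1.53 ± 0.24, adjusted p = 1.16e-05). Elovl6, a fatty acid elongase, was the only one of 18 tested lipogenic genes to pass. It rose 3.06-fold (1.61 ± 0.29, adjusted p = 0.000213), from 8.34, 8.16 and 7.97 to 9.97, 9.59, 9.18 and 10.33, with Rs632 highest. Gpd2, the mitochondrial glycerol phosphate dehydrogenase, rose 2.29-fold (1.20 ± 0.26, adjusted p = 0.00355) and was highest in Rs627, at 8.37 against 6.99 to 7.61 in the other treated cultures. Its call was lost without Rs627 and without Rs631. Sgms1, a sphingomyelin synthase, rose 2.02-fold (adjusted p = 0.000473).

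Slc34a2, a sodium-phosphate carrier, varied widely without the agent, with 8.35, 5.42 and 8.20 against 10.86, 10.17, 9.12 and 9.99 (6.55-fold, 2.71 ± 0.63, adjusted p = 0.0099). Rs631 was lowest in both groups, and the call was lost without Rs627, Rs628 or Rs632. Sgk2, a kinase related to the glucocorticoid-regulated Sgk1, rose 2.75-fold (1.46 ± 0.27, adjusted p = 0.000386), from 5.71, 5.49 and 5.42 to 7.79, 6.40, 7.41 and 6.39. Apol9a, of the apolipoprotein L family, rose 2.59-fold (adjusted p = 0.000114) and Rab30, a small GTPase of the Golgi, 2.32-fold (adjusted p = 1.16e-05). Those 3 passed without each rat in turn. Colq, a collagen tail that anchors acetylcholinesterase, lay under 5 in all untreated cultures and above it in 3 of 4 treated ones, a rise of at least 1.36-fold (1.22 ± 0.32 as measured, adjusted p = 0.0391). It passed of the leave-outs only without Rs631.

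Cyp1b1, a P450 that the aryl hydrocarbon receptor induces, differed in level between the treated rats. It was under 5 in all untreated cultures, at 4.07, 3.82 and 4.24, and read 6.40, 8.34, 4.37 and 7.95 with the agent. Rs631 thus stayed below 5 while the other treated cultures were far above, a rise of at least 3.79-fold (2.72 ± 0.69 as measured, adjusted p = 0.0259). The call was lost without Rs627, Rs628 or Rs632, and without the 10 µM arrays of Rs628 and Rs632 the log2 change was 1.34 (adjusted p = 1). Of the 6 tested genes of that receptor, 1 passed, and their median was 1.44. In the same list Cyp1a2 was 4.95-fold higher (2.31 ± 0.96, adjusted p = 0.459), with 6.34, 5.61 and 5.66 against 8.34, 7.32, 8.49 and 8.57. Cyp1a1 was 2.56-fold higher (1.35 ± 0.62, adjusted p = 0.569), with 12.11, 9.85 and 11.19 against 12.50, 12.34, 12.27 and 12.50. Aldh3a1 was at least 2.50-fold higher (adjusted p = 0.429). These 3 did not overlap between the groups, and none passed with or without the block (adjusted p with it 0.267, 0.212 and 0.251). At 0.001 µM Cyp1a2 read 8.16, 8.35 and 5.33 in Rs627, Rs631 and Rs632, and Cyp1a1 read 12.35, 12.27 and 10.92. At 0.01 µM Cyp1b1 read 7.47, 3.95 and 4.06 in the same rats. High values of these genes thus occurred in some rats at concentrations far below 10 µM, and for Cyp1a1 also in the untreated culture of Rs627.

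Several rises encode transcription factors or other nuclear proteins, a group formed after the values were seen. Ets2 rose 1.93-fold (0.95 ± 0.12, adjusted p = 2.01e-07) with little spread, from 9.52, 9.24 and 9.40 to 10.22, 10.30, 10.46 and 10.35. Cebpb, a factor of acute phase and metabolic genes, rose 1.87-fold (0.90 ± 0.16, adjusted p = 0.000184), and Rs632 was highest at 11.57 against 10.65 to 11.09 in the other treated cultures. Its call was lost without Rs632. Mafk, a small partner of stress-response factors, rose 1.73-fold (0.79 ± 0.14, adjusted p = 0.000184). Rreb1 rose 1.54-fold, the corepressor Rcor1 1.54-fold, the general factor Gtf2b 1.29-fold and the histone methyltransferase Dot1l at least 1.53-fold. The call of Gtf2b was lost whichever rat was left out. Cebpb was the only one of 22 tested acute phase and inflammatory genes to pass. Its relative Cebpd was 2.83-fold lower without passing (adjusted p = 0.22, with the block 0.00357).

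The other rises, also grouped after their values were seen, concern membranes, trafficking and the cytoskeleton. Whamm, which nucleates actin at membranes, rose 1.81-fold (0.85 ± 0.13, adjusted p = 9.28e-06), from 6.35, 6.18 and 6.24 to 7.11, 7.06, 7.15 and 7.10, with treated cultures within 0.1 of each other. Tbc1d2 rose 1.82-fold, Rhob 1.73-fold, Enc1 1.40-fold, Dst 1.40-fold and Fermt2 1.29-fold. Transporters and channels among them were Slc16a6 of the monocarboxylate carrier family (2.03-fold) and Tpcn2 of endolysosomes (1.90-fold). The interleukin receptor Il4r rose 1.57-fold, the phosphatase subunit Ppp2r2d 1.44-fold and the haem-binding Pgrmc2 1.40-fold. Of the genes in this paragraph, Fermt2 lost the call whichever rat was left out.

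The falls were spread over regulators of many kinds. Znf750 read 7.38, 6.71 and 7.26 at 0 µM and 5.89, 4.46, 5.80 and 5.19 at 10 µM (log2 change -1.78 ± 0.24, adjusted p = 2.34e-07). Every treated culture was lower, and Rs628 went under 5, so that the fold given above is a lower bound with that value taken as 5. Depp1, a gene that FOXO factors induce, was lower by 3.55-fold (-1.83 ± 0.46, adjusted p = 0.0235), with 8.45, 8.21 and 9.12 against 7.23, 6.29, 6.73 and 6.81, and the call was lost without Rs627 and without Rs632. Id4, which blocks basic helix-loop-helix factors, was lower by 2.97-fold (-1.57 ± 0.30, adjusted p = 0.000448), from 8.0, 8.41 and 8.28 to 7.10, 6.16, 7.48 and 5.89. In Id4 the treated cultures of Rs628 and Rs632 lay more than 0.9 below the other 2, and the call was lost without Rs632.

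Kcnk5, a potassium channel, fell 2.27-fold (-1.18 ± 0.22, adjusted p = 0.000335), from 7.71, 7.25 and 6.82 to 6.27, 5.65, 6.57 and 5.82. Anks4b, a scaffold of the brush border, fell 2.54-fold (-1.34 ± 0.24, adjusted p = 0.000255), from 8.44, 7.96 and 8.27 to 7.32, 6.27, 7.33 and 6.61. Nags, whose product switches on the first enzyme of the urea cycle, fell 2.16-fold (-1.11 ± 0.24, adjusted p = 0.00332), from 8.29, 8.48 and 8.19 to 7.53, 6.67, 7.71 and 6.94. In all 3 the untreated cultures were the higher ones without overlap, and Rs628 was the lowest treated one. The calls of Anks4b and Nags were lost without Rs632.

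The next genes were put together after their values were seen. Hhex, a homeobox factor of early liver, fell 1.71-fold (-0.77 ± 0.14, adjusted p = 0.000245), from 10.39, 10.30 and 10.49 to 9.74, 9.76, 9.62 and 9.35, a narrow shift without overlap. Foxa2, a pioneer factor, fell 1.47-fold (-0.56 ± 0.12, adjusted p = 0.00252), from 9.86, 9.46 and 9.54 to 9.34, 9.32, 9.17 and 8.42, with Rs632 lowest. It lost the call without Rs627 and without Rs632, and it was the only one of 21 hepatocyte identity genes to pass, a list that also holds Hnf4a, Foxa1 and Foxa3. Bambi, a decoy receptor of TGFβ signalling, fell at least 2.11-fold (-1.26 ± 0.32 as measured, adjusted p = 0.0285), a call lost without Rs627 and without Rs632. Sybu, a cargo adaptor of kinesin, was above 5 in all untreated cultures and in no treated one, a fall of at least 1.52-fold (-1.55 ± 0.41 as measured, adjusted p = 0.0372), and its call was lost whichever rat was left out.

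Further falls, grouped after their values were seen, include transcription regulators, growth and death signalling, and the TRIM protein family. Among the first were Tfap4 (at least 2.08-fold), Zfp395 (at least 2.37-fold), Pias3 (2.06-fold), Jade1 (1.90-fold), Zfp467 (1.68-fold), Elf1 (1.65-fold), Irf2bpl (1.55-fold), Irf2 (1.5-fold), Klf13 (1.48-fold) and Hsf2 (1.29-fold). A second probe set of Irf2 gave a log2 change of 0.13 (unadjusted p = 0.784). Genes of the cell cycle and stress were Wee1, which restrains entry into mitosis (1.95-fold), the centrosomal Cep152 (2.55-fold), the death inducer Bbc3 (1.77-fold) and Sesn1 (2.26-fold). Sesn1 also has another probe set, which gave 0.18 (unadjusted p = 0.416). Signalling genes were the ephrin Efna1 (2.08-fold), Lrig3 (1.58-fold), Traf4 (1.79-fold) and Map3k3 (1.74-fold), and the TRIM family gave Trim32 (2.06-fold) and Trim14 (1.63-fold). Cfap20, a ciliary protein, fell 1.58-fold (adjusted p = 0.000473) from a tight 9.11, 9.12 and 9.10. It alone of the falls in this paragraph passed without each rat in turn. The calls of Pias3, Zfp467, Elf1, Irf2, Klf13, Hsf2, Sesn1, Map3k3 and Trim14 were lost whichever rat was left out. Over all 90 genes, 37 further probe sets belong to 26 of them, and 32 had the same sign as the one used.

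The falls moved together with the dimmer arrays. In 42 of 46 falls the mean of Rs628 and Rs632 at 10 µM was under that of Rs627 and Rs631, with a median difference of -0.46. The same held for 28 of 44 rises, with a median of -0.03, and for 69.4% of all genes tested, with a median of -0.15. Without these 2 arrays, 36 genes passed (32 higher and 4 lower), and with the rat as a block 104 (76 and 28). In the fit without the block all 46 falls kept their sign, which for 45 of them follows from the lack of overlap given above. Their median log2 change was -0.67, and 4 of them still passed: Znf750 (-1.27, adjusted p = 0.00277), Hhex (-0.71, 0.0181), Bbc3 (-0.99, 0.0171) and Lrig3 (-0.70, 0.0181). Of the 44 rises 26 still passed, with a median of 0.94. For Rtp3, Plekhf1, Cep152 and Sesn1 the log2 change shrank to -0.59, -0.58, -0.58 and -0.59, from -1.25, -1.24, -1.35 and -1.18, and for Mab21l3 to -0.87 from -1.59. The titles of both arrays also hold a code that the titles of further arrays share, and the labels do not say what it means. The part of signal in the falls was not tested beyond these values.

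**Figure D2:**
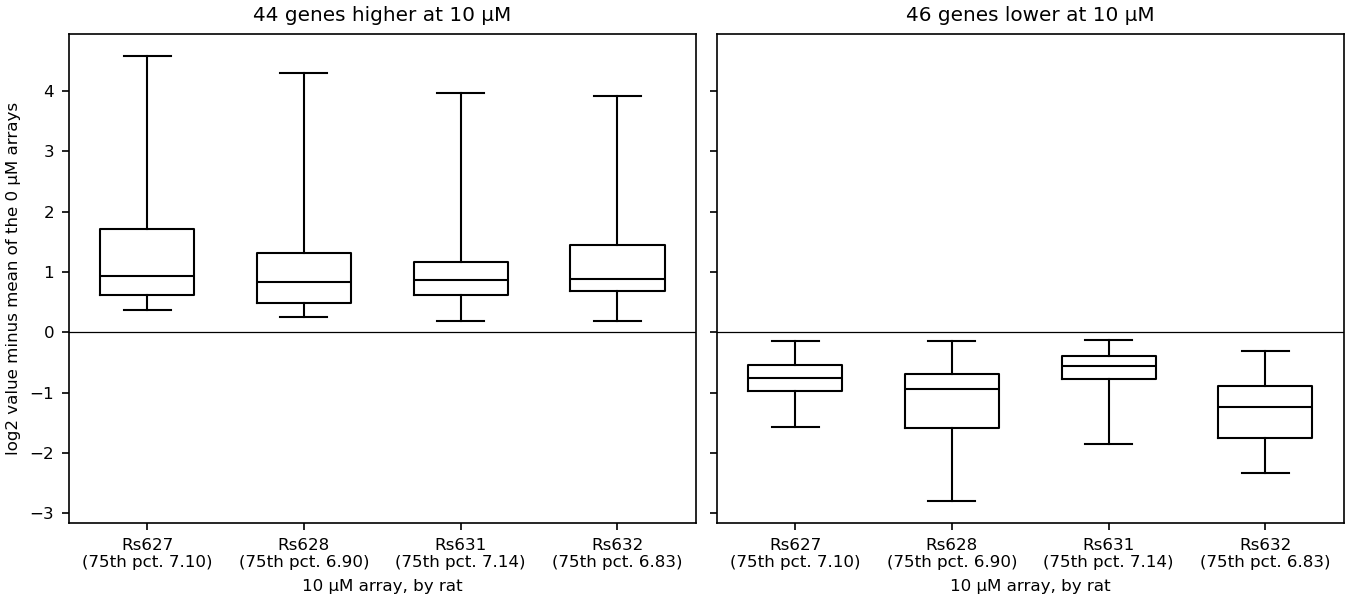
Log2 value of each 10 µM array minus the mean of the 3 arrays at 0 µM, for the 44 genes that rose and the 46 that fell, one box per rat with the median, the quartiles and whiskers to the extremes. The number under each rat is the array's 75th percentile of log2 intensity. The rises have like medians in the 4 rats, while the falls are deepest in Rs632 and Rs628, the arrays with 75th percentiles of 6.83 and 6.90.

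Several stress and signalling programmes were also read, by lists of known members. None of 26 immediate early genes passed, although their median was 0.32, and with the block Gadd45g (2.30-fold, adjusted p = 0.0625 without and 0.0196 with it) and Gadd45a (1.43-fold, 0.325 and 0.0232) did. None passed of 18 ATF4 and unfolded protein response genes (median 0.03), 11 heat shock genes (0.07), 13 NRF2 genes (0) or 15 CAR and PXR target genes (-0.18). None passed either of 17 cholesterol genes (median -0.13), 12 bile acid genes (-0.06), 19 glucose genes (-0.15), 16 clock genes (-0.11) or 14 cell cycle and p53 genes (-0.11). In the glucose list Arrdc4, an α-arrestin and relative of Txnip, went the other way from Txnip. It read 8.72, 8.81 and 9.01 and then 8.25, 7.78, 8.31 and 8.21, and was lower by 1.63-fold without overlap, passing with the block but not without it (adjusted p = 0.162 without and 0.022 with it). With the block 1 NRF2 gene, Gclc (log2 change -0.42, adjusted p = 0.193 without and 0.0457 with it), 2 clock genes and 1 cell cycle gene were lower, and 1 cholesterol gene, Insig1 (0.43, 0.336 and 0.00474), was higher.

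The 10 µM cultures were next set against those at 1 µM (3 arrays) and 0.1 µM (4 arrays) at the same time, which asks whether the response still grew at the top of the range. No gene differed between 10 and 1 µM (0% of 8843), with 313 genes at an unadjusted p under 0.05, 58 higher and 255 lower at 10 µM. The smallest adjusted p was 0.904, and 0.742 with the rat as a block. Of the 44 rises 26 read higher at 10 than at 1 µM, with a median difference of 0.03. For Pdk4 the difference was -0.07 with a 95% interval from -0.98 to 0.84, for Angptl4 -0.11 (-0.43 to 0.22), and for Plin2 0.01 (-0.14 to 0.17). These intervals bound a further change from 1 to 10 µM most closely for Plin2 and leave room for about 0.9 on the log2 scale in Pdk4.

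All 46 falls read lower at 10 than at 1 µM, as did 75.7% of all genes tested, with medians of -0.37 and -0.10. Rises and falls were chosen by the values of these same 10 µM arrays, so a difference in their own direction is partly built in. The same limit holds for the counts and intervals of the falls given next. Of the falls, 17 had an unadjusted p under 0.05 in this direct comparison. Without the treated arrays of Rs628 and Rs632, 16 of all genes had one, in place of 313, and without Rs632 altogether 9. The difference was -0.69 for Znf750 (95% interval -1.16 to -0.22) and -0.69 for Anks4b (-1.17 to -0.21), against -0.15 for Kcnk5 (-0.58 to 0.28). Between 10 and 0.1 µM no gene passed either (0%), and 56 had an unadjusted p under 0.05, 41 higher and 15 lower at 10 µM. That count for 0.1 µM includes Rs631, whose 75th percentile at this concentration was 6.55, the lowest at 2 h. Without Rs631 there were 282 genes, 36 higher and 246 lower, and still none passed.

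The lower concentrations share their untreated arrays with 10 µM, so their values are only set side by side. Pdk4 averaged 8.35 ± 1.26 (SD) at 0 µM, 8.12 ± 1.27 at 0.001 µM, 10.02 ± 0.77 at 0.01 µM, 11.95 ± 0.07 at 0.1 µM, 12.23 ± 0.07 at 1 µM and 12.16 ± 0.26 at 10 µM. Angptl4 averaged 10.11 ± 0.47, 9.90 ± 0.43, 11.00 ± 0.08, 11.71 ± 0.15, 11.81 ± 0.16 and 11.71 ± 0.14 over the same steps. From 0.1 to 10 µM the values of Angptl4 overlapped between neighbouring concentrations. Those of Pdk4 at 0.1 µM, between 11.88 and 12.03, lay below those at 1 µM, between 12.16 and 12.29, while the values at 10 µM, between 11.78 and 12.34, overlapped both. Ehhadh stayed at 8.33 ± 0.27, 8.32 ± 0.21 and 8.57 ± 0.10 up to 0.01 µM and read 9.67 ± 0.33, 10.09 ± 0.36 and 10.17 ± 0.36 above it. Znf750 went from 7.11 ± 0.36 over 6.77 ± 0.42, 6.64 ± 0.24, 5.95 ± 0.46 and 6.03 ± 0.25 to 5.34 ± 0.66. Over the 44 rises the median log2 change from 0 µM was -0.01, 0.22, 0.60, 0.82 and 0.91 from 0.001 to 10 µM, and over the 46 falls -0.15, -0.29, -0.70, -0.49 and -0.93. Both sets were chosen at 10 µM, which favours larger changes there. The numbers of genes past the threshold were 0, 1, 17, 33 and 90, or 0, 0.0113, 0.192, 0.373 and 1.02% of those tested. At 0.1 µM 13 were higher (0.147%) and 4 lower (0.0452%), and at 1 µM 31 higher (0.351%) and 2 lower (0.0226%). The gene at 0.01 µM was Angptl4 (log2 change 0.90, adjusted p = 0.0166).

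**Figure D3:**
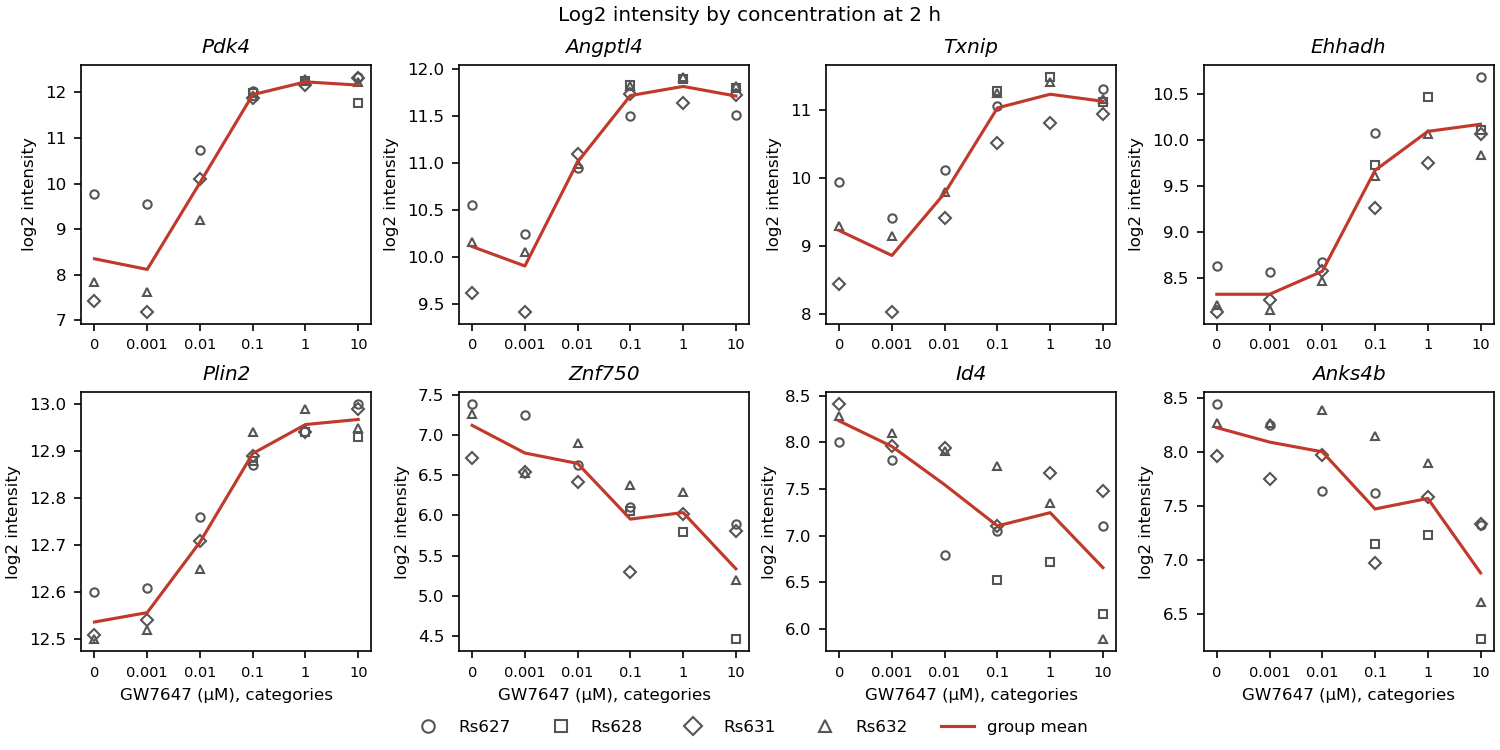
Log2 intensity of each array at 2 h against GW7647 concentration in µM, with concentrations as evenly spaced categories, a symbol per rat and a line through the group means, for 5 genes that rose and 3 that fell at 10 µM. The means of Pdk4 and Angptl4 from 0.1 µM on lie above those at lower concentrations, and Znf750, Id4 and Anks4b are lowest at 10 µM.

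Whether the early changes lasted was read from the 10 µM and 0 µM cultures at later times, which are other arrays of the same rats. At 6 h, where 4.3% of all genes passed (1.56% higher and 2.74% lower), 32 of the 44 rises were again higher, which is 32 of the 138 genes higher at 6 h. Of the 46 falls 18 were again lower, out of 242 genes lower at 6 h. The rises remained called at 12, 24 and 72 h for 34, 33 and 37 of the 44 genes, against 5.55, 6.43 and 12.5% of all genes tested. The falls did so for 7, 22 and 16 of the 46, against 2.4, 10.7 and 15.6%, and 1 of them was called higher at 72 h. The median log2 change of the rises was 1.08, 1.16, 1.19 and 1.27 over these later times, and that of the falls was -0.61, -0.21, -0.54 and -0.33. One of the 3 arrays at 10 µM and 6 h, from Rs627, was dim, with a 75th percentile of 6.42 against 7.18 to 7.26 in the other arrays of 10 and 0 µM at 6 h.

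Single genes took different courses. Ehhadh went from a log2 change of 1.84 at 2 h to 3.43, 4.36, 4.37 and 4.92 at 6, 12, 24 and 72 h, and Acot1 as measured from 3.39 to 5.97, 7.13, 7.65 and 8.14. Pdk4 stood at 3.81, 2.92, 3.20, 4.24 and 4.27 and Angptl4 at 1.60, 0.96, 1.10, 1.26 and 0.99. Ets2 read 0.95, 0.56, 0.40, 0.35 and 0.15, with adjusted p of 0.0561 at 24 h (0.0257 with the block) and 0.418 at 72 h, and Mafk was at 0.12 or less from 6 h on. Cyp1b1 stood at 2.72, 1.39, 0.05, -0.02 and -0.06. Of the falls, Kcnk5 held between -1.39 and -1.18 at all 5 times and passed at each. Znf750 read -1.78, -0.66, -0.15, -0.24 and -0.03 and passed at 2 h only, or also at 6 h with the block (adjusted p = 0.0367, and 0.089 without it), and Nags read -1.11, -0.24, 0.21, 0.07 and 0.50. Whether these courses differ over time was tested only from 2 to 6 h.

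In that test 4 genes passed (0.0452% of 8843), 3 with a higher change at 6 h (0.0339%) and 1 with a lower one (0.0113%), with 318 at an unadjusted p under 0.05, and 23 with the rat as a block (19 and 4). Pgrmc2 had a log2 change of 0.49 ± 0.10 at 2 h and 1.23 ± 0.10 at 6 h, a difference of 0.74 ± 0.14 (adjusted p = 0.0163). Lonp2, a peroxisomal protease, grew from 0.17 to 0.83 (0.66 ± 0.14, adjusted p = 0.0427) and the thiolase Acat1 from 0.35 to 1.11 (0.76 ± 0.16, adjusted p = 0.0427). Neither passed at 2 h. Fbxo34, an F-box protein, went from 0.38 to -0.61 (-0.99 ± 0.22, adjusted p = 0.0427). The differences of Ehhadh (1.59, adjusted p = 0.076, with the block 0.00736), Pdk4 (-0.89, adjusted p = 1) and Znf750 (1.11, adjusted p = 0.559) did not pass without the block. Without Rs627, Rs631 or Rs632, or without the dim 10 µM arrays of Rs628 and Rs632 at 2 h, no gene passed this test.

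**Figure D4:**
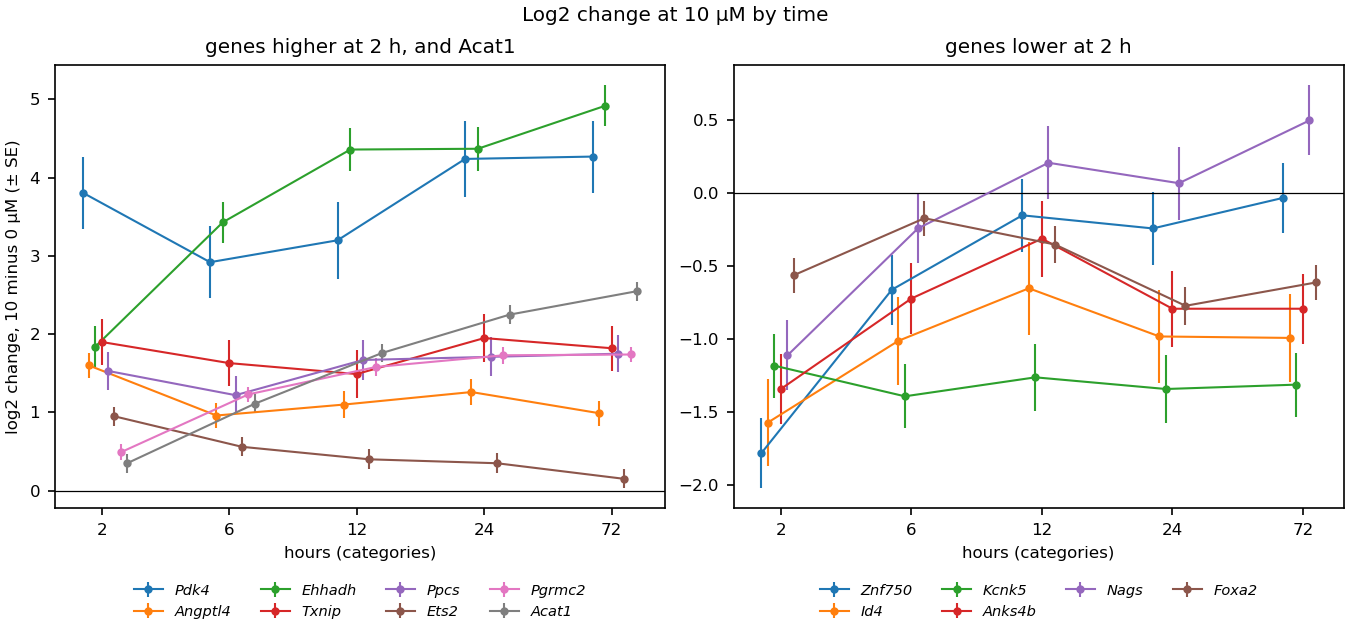
Log2 change at 10 against 0 µM with its standard error at 2, 6, 12, 24 and 72 h, with times as evenly spaced categories, for 7 genes higher at 2 h with Acat1 (left) and 6 genes lower at 2 h (right). Ehhadh, Pgrmc2 and Acat1 are higher at 72 h than at 2 h, Ets2 returns towards 0, and of the falls Kcnk5 stays between -1.39 and -1.18 while Znf750 and Nags end close to 0 or above it.

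The threshold cut through a continuous range of values. The 3 genes nearest inside it were Traf4 (log2 change -0.84, adjusted p = 0.0478), Tmem171 (0.61, 0.0488) and Syde2 (-0.66, 0.0488). The 3 nearest outside were Stk24 (0.50, 0.0526), Gypc (-0.67, 0.0566) and Rab40c (-0.82, 0.0566), and all 6 passed with the rat as a block.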

How the data were processed

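Total RNA of hepatocyte cultures was labelled with a 3′ IVT kit and hybridised to Affymetrix arrays, per the labels' protocols. What the authors deposited is a log2 intensity for each probe set on each array. Per the submitters' processing notes the tools were GCRMA and Partek, with neither version nor role given, and no further normalization was applied here. The number of arrays limits the precision.

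Of 31139 probe sets, 19069 had 1 gene symbol, 572 several and 11498 none in the platform annotation, and 18989 of those with 1 matched the RefSeq gene table by gene ID and 3 by accession. Each of 13439 genes was read from 1 probe set, that of highest mean on the 100 arrays. Those with 3 or more arrays over a log2 value of 5, 8843 genes, were tested. Where values lay under 5, a fold is a lower bound with them set to 5.

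One model with 30 group means was fitted to all 100 arrays with limma 3.58.1 in R 4.3.3 (70 residual degrees of freedom). It had no term for the rat, because the labels state no blocked analysis, so its p-values treat arrays of the same rat as independent. Tests were two-sided at 0.05, and p-values were adjusted in each comparison across the 8843 genes by the Benjamini-Hochberg method. The model was first run on simulated data with known changes. Those data had independent noise and no rat effect or dim arrays, so they do not test how these affect the calls. Figures were drawn with matplotlib 3.10.9 in Python 3.11.15. Comparisons were 10 against 0, 1 and 0.1 µM at 2 h, and the change at 6 h minus that at 2 h.

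The labels give each array its rat, so arrays with the same number share an animal. At 2 h, correlations of the arrays' deviations from their group had a median of 0.63 within rats (lowest 0.04) and -0.27 between rats, and each of the 20 arrays was nearest to one of its own rat. Among the 7 arrays the values correlated between 0.936 and 0.993, and none were identical. A fit blocked by rat was 1 of the alternatives, and its values are printed for only some of the genes whose call it changes.

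Genes named were up to 15 rises and 15 falls by size, up to 6 members per list by p, list members that did not pass and a set of PPARα targets. Further called genes were named after their values were seen. The comparison, its lists and this rule were chosen with earlier results of these data known. Other alternatives are in the closing section.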

Additional observations from a re-analysis of the deposited data

Results flagged for a closer look

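In 5 of 121 groups of 4 treated values tested, 1 array lay apart by Dixon's ratio of gap to range (above its 95% critical value), which chance gives in about 1 of 20 groups. The ratio was 0.944 for Crat, where Rs627 was high at 8.57 while the others lay close together, and 0.87 for Creb3l3, where Rs627 was high at 10.62 against 10.45 to 10.47. In Syde2 it was 0.945, with Rs632 high at 8.26 against 7.78 to 7.81. For Jade1 it was 0.871, with Rs632 low at 7.49 against 8.54 to 8.69, and for Rab33b 0.952, with Rs632 low at 8.11 against 8.53 to 8.55.

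The change at 10 µM differed between 6 and 2 h, by the test of the difference itself, for Pgrmc2 (0.74), Lonp2 (0.66), Acat1 (0.76) and Fbxo34 (-0.99).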

How the results depend on the processing

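The 90 genes that differed between 10 and 0 µM at 2 h became 229 when the rat was a block, 199 with block and median centring, 351 with the block and quantile normalization, 16 with the 20 arrays of 2 h alone, 36 without the 10 µM arrays of Rs628 and Rs632, and 0 with the 7 arrays alone, with or without the block (489 and 713 at an unadjusted p under 0.05). Leaving out a rat gave 23 to 82. The other alternatives gave 64 to 119. They were every probe set, a minimum of 1.5-fold, median centring, quantile normalization, a robust prior with a trend, and a stricter filter (log2 7) or none. Also among them were no arrays whose label ends in 2, none with a repeated title code, and the block without the 2 arrays. Those without the 2 arrays, and the block with either scaling, were chosen after the data were seen. In 44 of 44 rises and 45 of 46 falls the groups did not overlap, so leaving out arrays could not reverse their direction without the block. Each of the 90 genes kept its direction in every alternative that was computed for it, which leaves out every probe set. There, 5 of 37 further probe sets had the opposite sign. Of the alternatives computed for them, 9 rises and 2 falls passed in all but those on the 7 arrays alone, and these include Pdk4, Txnip, Ehhadh, Angptl4, Mlycd, Ets2, Znf750 and Hhex.

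Between 10 and 1 µM each alternative gave 0, and between 10 and 0.1 µM only no filter gave 1. The 4 genes whose change differed between 6 and 2 h became 23 with the block, 14 with block and median centring, 59 with block and quantile normalization, 2 with the block without the 2 arrays, and 1 with every probe set. They became 0 with the arrays of the compared groups alone (with or without the block), with median centring and without the 2 arrays. Leaving out arrays with a repeated title code, or those whose label ends in 2, also gave 0, and leaving out a rat gave 0 to 4. The causes were not tested. Dim values limit Cyp1b1, Colq, Acot1, Dot1l, Sybu, Dennd2c, Znf750, Bambi, Tfap4, Zfp395, Gdf15 and Aldh3a1, among others, to bounds. The 3 or 4 arrays in each group at 2 h limit precision.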
